A study of Mus musculus with 4 samples.

Results

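Gene expression was compared between p65+/+ Ras fibroblasts recovered from a tumour and the same cells before injection, which are 2 of the 4 samples of the series, with 1 Affymetrix array each. The comparison takes the log2 signal on the p65+/+ tumour array minus the log2 signal on the p65+/+ pre-injection array, over all 45037 probe sets. All cells were mouse embryonic fibroblasts (MEFs), a connective tissue cell type. They were made to express oncogenic Ras by infection with the retrovirus pBabe-HRASG12V-Hygro, which also carries hygromycin resistance. The p65+/+ Ras tumour sample came from cells injected into SCID mice, which lack functional T and B cells but keep innate immune, vascular and stromal cells. The tumour was removed and treated with collagenase, and the cells were put back into culture and kept in hygromycin for 2 weeks before RNA was taken. The p65+/+ Ras pre-injection sample was the infected culture that had not been in a mouse. A p65-/- Ras tumour sample and a p65-/- Ras pre-injection sample, made the same way from fibroblasts without Rela, gave values to set beside these. Growth medium held 10% serum in each case. The sources used here do not say how many mice, tumours or cultures stand behind an array. Growth in the mouse, collagenase treatment, renewed culture and hygromycin selection cannot be told apart, since the tumour cells had all of them.

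Oncogenic HRAS keeps the RAF, MEK and ERK kinases active, and its output includes induced growth factors, feedback phosphatases and Sprouty proteins. NF-kB, whose p65 subunit is the product of Rela, drives genes for cytokines, chemokines and matrix proteases in fibroblasts. Fibroblasts also make the collagens and other proteins of the connective tissue matrix, and the enzymes that degrade it. When amino acids or the glutathione precursor cysteine run short, the transcription factor ATF4 raises genes of amino acid import and synthesis.

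The 2 arrays were alike over most of the genome. Of 18193 genes with a probe set of their own, 11706 had a signal at or above the floor on at least 1 of the p65+/+ arrays, 6487 lay under both floors, and the median log2 difference of the compared genes was -0.01. The floor was the median signal of each array, 92.5 for tumour and 93.4 for pre-injection cells. Genes whose signals differed by 2-fold or more were counted. A signal under the floor was raised to it, and such a fold is written "at least". By this count 116 genes were higher in tumour cells, which is 0.991% of the compared genes, and 91 were lower, which is 0.777%. Together these 207 genes make up 1.77%. The difference was under 0.5 on the log2 scale for 90.4% of genes, and from the 2.5th to the 97.5th percentile the differences ran from -0.63 to 0.70. Across genes above both floors the log2 signals had a Pearson correlation of 0.972, and the scanner intensities of all cells of the arrays had one of 0.980. Genes are no replicates of a condition, so both coefficients only describe the arrays.

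**Figure D1:**
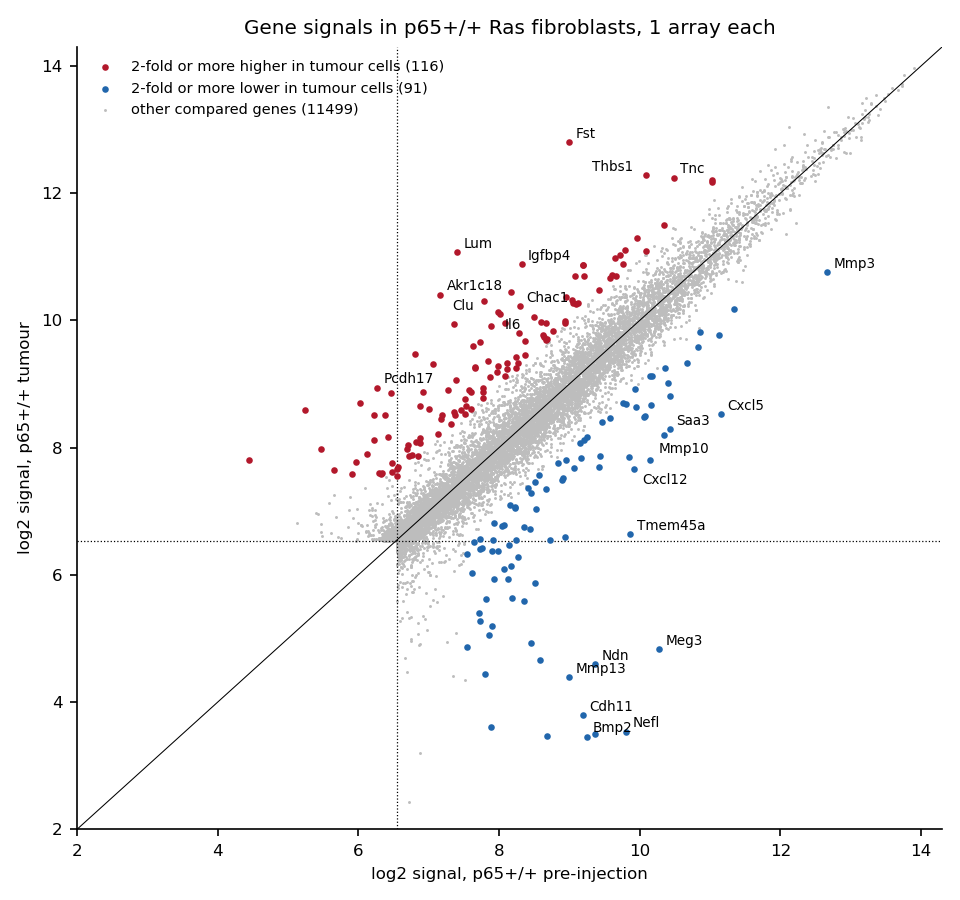
The plot sets the log2 signal of each compared gene on the p65+/+ tumour array (vertical) against that on the p65+/+ pre-injection array (horizontal), with the array floors as dotted lines and equal signal as the solid line. The 116 genes higher by 2-fold or more in tumour cells are red and the 91 lower genes blue, and most other genes lie close to the line.

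With 1 array a side no difference could be tested, and the spread between cultures or tumours is unknown. The only error available was that between probe sets of the same gene on the same arrays. The standard deviation of the log2 difference within a gene was 0.19, over the 5222 genes that had several compared probe sets. Of the 116 higher genes, 52 had 2 or more compared probe sets. In 49 of these all probe sets were higher, and in 23 all were higher by 2-fold or more. Of the 91 lower genes, 39 had 2 or more compared probe sets, with all lower in 37 and all lower by 2-fold or more in 16.

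Rela had a signal of 1457 in p65+/+ tumour cells and 1479 in p65+/+ pre-injection cells, so the targeted gene was at the same level on both arrays. It was 209 and 214 in p65-/- tumour and pre-injection cells. Of 20 mesenchymal regulators and fibroblast markers, 18 were above the floor in p65+/+ tumour cells and 19 in pre-injection cells. Vim was at 10914 and 10047, S100a4 at 7549 and 6652, and Pdgfra at 1662 and 1557. Of the 19 compared members 13 had a difference above 0 and 6 had one below 0. Among the latter, Cdh11 had 13.9 in tumour cells, under the floor, and 585 before injection. Cd34 had 899.7 and 1854, and Thy1 had a log2 difference of -0.18. None of the marker lists of other cell types had a member that differed by 2-fold. Ecscr, named for expression on endothelial cells, is not in these lists. It had 279 in tumour cells and 74.85, under the floor, before injection, at least 2.99-fold higher. The summed signal of 17 macrophage markers was 1949.8 in tumour and 1986 in pre-injection cells, and that of 13 endothelial markers 1355 and 1693. For lymphocyte and granulocyte, epithelial, skeletal muscle and fat cell markers the sums were 1523, 859, 1251 and 963 in tumour cells, against 1554, 881, 1298 and 941 in pre-injection cells. Under both floors lay 12 of the 17 macrophage and 10 of the 13 endothelial markers. Of the 5 compared macrophage markers 3 lay above 0 and 2 below, and of the 3 compared endothelial markers 0 lay above and 3 below. The macrophage marker Cd14 had 809 in tumour and 743 in pre-injection cells. Cd53, also a macrophage marker, was 91.1, under the floor, in tumour cells and 181 before injection. The endothelial receptor gene Flt1 was 400.2 and 729.9. In bulk samples, fewer cells of a type and less RNA per cell cannot be told apart.

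Fst and Lum had the largest differences among the higher genes, and Igfbp4, Clu, Thbs1 and Il6, which also encode secreted proteins, were at 4.43-fold to 5.90-fold. Fst encodes follistatin, a secreted protein that binds and blocks activins. Its signal was 7122 in tumour cells and 509.5 in pre-injection cells, 14.0-fold higher, and its second probe set gave 5908 and 743. Lum encodes lumican, a proteoglycan that organises collagen fibrils. It had 2151 in tumour cells and 169 in pre-injection cells, 12.7-fold higher, on 1 probe set. Igfbp4, an insulin-like growth factor binding protein, had 1889.95 against 320.4, 5.90-fold higher, and 5 of its 6 compared probe sets were higher by 2-fold or more. Clu encodes the secreted chaperone clusterin. It was 1261 in tumour and 219.7 in pre-injection cells, 5.74-fold higher, and all 4 of its probe sets passed 2-fold. Thbs1 encodes thrombospondin-1, a matrix protein that limits vessel growth. Its signals were 5008 and 1087, 4.61-fold higher, with 2 of 2 probe sets past 2-fold. The cytokine gene Il6 had 1124 in tumour cells and 254 in pre-injection cells, 4.43-fold higher, on 1 probe set.

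The third highest gene was Akr1c18. It encodes a hydroxysteroid dehydrogenase that inactivates progesterone, and had 1356 in tumour cells and 143 in pre-injection cells, 9.46-fold higher. Slc14a1, a urea transporter, had 984 and 164, 6.00-fold higher, and both of its probe sets passed 2-fold. Mlycd and Mid1ip1 act in opposite directions on malonyl-CoA, the building block of fatty acids. Mlycd, which breaks down malonyl-CoA, had 633 in tumour and 134 in pre-injection cells, 4.74-fold higher. Mid1ip1, an activator of acetyl-CoA carboxylase, had 1390.3 and 288, 4.83-fold higher. Dynap, named for its binding to dynactin, had 713 and 112, 6.36-fold higher. Glipr1, a secreted or membrane protein of the CAP family, had 1096 against 257, 4.26-fold higher. H1f2, a linker histone, was 4.09-fold higher but went past 2-fold on only 2 of its 3 probe sets. Slc6a17, a neutral amino acid transporter, was 3.90-fold higher on 1 of 3 probe sets, and Smim27 was 3.89-fold higher on its 1 probe set.

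Some genes were above the floor in tumour cells only. The protocadherin gene Pcdh17 had 492 in tumour cells and 77.2 before injection, at least 5.27-fold higher, and both probe sets passed 2-fold. Kctd4 was at least 4.97-fold higher, with 1 of 2 probe sets past 2-fold. Sar1b, a GTPase of transport out of the endoplasmic reticulum, was at least 4.44-fold higher, with 414 and 65.1. The others with the largest such differences were the netrin gene Ntn4, the alcohol dehydrogenase gene Adh7, the protease inhibitor gene Serpini1 and the genes Mcc and Ecscr, at least 2.99-fold to 4.15-fold higher. These 5 fell short of 2-fold when the floor was set at the 70th percentile of each array. Their pre-injection signals lay between 37.6 and 86.0. Ntn4 and Serpini1 passed 2-fold on 1 of 2 compared probe sets each.

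The lower genes included those of chemokines, acute-phase proteins and matrix proteases, and imprinted genes. Tmem45a, a membrane protein, had 99.8 in tumour cells and 934 in pre-injection cells, 9.35-fold lower. The neutrophil chemokine gene Cxcl5 had 369 and 2277, 6.18-fold lower. Cxcl12, a chemokine that draws CXCR4-bearing cells, had 203 in tumour and 969 in pre-injection cells, 4.78-fold lower, and both of its compared probe sets passed 2-fold. Cx3cl1, the membrane-bound chemokine fractalkine, was 207 and 689, 3.32-fold lower, with both compared probe sets past 2-fold. The acute-phase genes Saa3 and Hp were 4.41-fold and 3.05-fold lower. Saa3 had 313 in tumour cells and 1379.99 in pre-injection cells, while Hp, encoding haptoglobin, had 107 and 327. Other genes in this group were Tpd52l1 at 5.06-fold, Kctd15 at 4.51-fold, the neuronal endosome gene Nsg1 at 4.41-fold and the retinol dehydrogenase gene Rdh10 at 3.06-fold lower. Fndc4 was 3.24-fold lower, past 2-fold on 1 of 2 probe sets. Tumour signals of Tpd52l1, Kctd15 and Fndc4 were 96.95, 93.35 and 93.33, just above the floor of 92.5, so these folds vary with the processing. Under the other settings the log2 difference ran from -3.43 to -1.32 for Tpd52l1, from -2.49 to -1.10 for Kctd15 and from -2.49 to -0.62 for Fndc4. Ezr, which encodes the membrane-to-actin linker ezrin, was 3.28-fold lower on 1 of 2 probe sets, and its other probe set had a log2 difference of -0.10. Of 28 compared chemokines and cytokines 3 were lower, Cxcl5, Cxcl12 and Cx3cl1, and 3 were higher, with a median of 0.11.

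**Figure D2:**
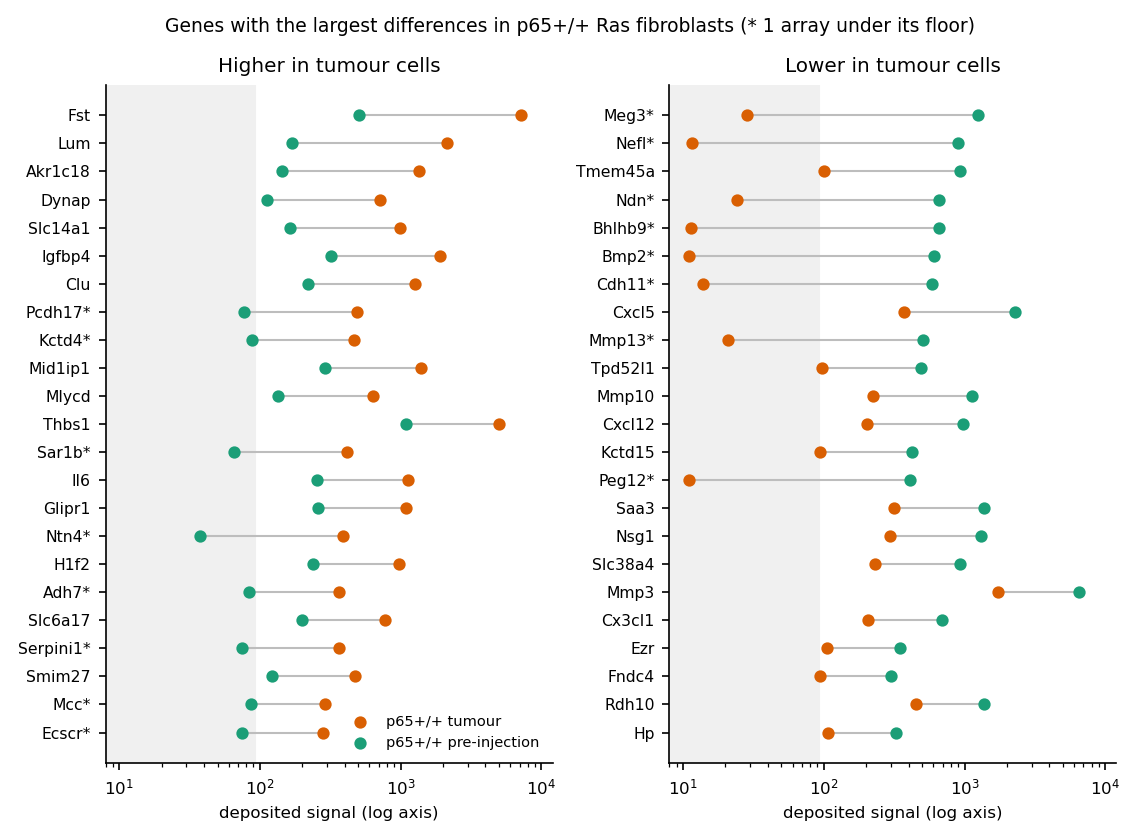
Each row is a gene with its signal in p65+/+ tumour cells (orange) and p65+/+ pre-injection cells (green) on a log axis, for the largest differences with both arrays above the floor and the largest with 1 array under it (asterisk). The grey band lies under the array floors, and genes such as Meg3, Nefl, Ndn and Bmp2 lie in it in tumour cells, against pre-injection signals of 608 to 1239.

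Several signals that were clear before injection lay under the floor in tumour cells. Meg3 is a maternally expressed long non-coding RNA of the imprinted Dlk1 region. It had 28.6 in tumour cells and 1239 in pre-injection cells, at least 13.4-fold lower, and 5 of its 9 compared probe sets were lower by 2-fold or more. Ndn and Peg12 are paternally expressed genes of the imprinted region on chromosome 7 that corresponds to the human Prader-Willi region. Ndn had 24.1 and 661, at least 7.14-fold lower, with 5 of 6 compared probe sets past 2-fold, and Peg12 had 11.0 and 412, at least 4.45-fold lower. Slc38a4, an imprinted amino acid transporter gene, was 231 in tumour and 921 in pre-injection cells, 3.98-fold lower, with both probe sets past 2-fold. In the list of imprinted genes, 14 of the 21 with a probe set were compared, 3 were lower by 2-fold or more, namely Meg3, Ndn and Slc38a4, and 0 were higher. The list median was -0.07, and 6 of the 14 lay above 0. Chosen after their values were seen, Dlk1 had a log2 difference of 0.16, Magel2, next to Ndn, one of 0.15, and Igf2r one of 0.17.

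Other genes whose signal lay under the floor in tumour cells have roles in neurons, bone and cell adhesion. Nefl, a neurofilament subunit, had 11.6 in tumour cells and 894 in pre-injection cells, at least 9.66-fold lower, and both probe sets passed 2-fold. Bhlhb9 had 11.3 and 659, at least 7.12-fold lower. Bmp2, a bone morphogenetic protein, had 11.0 and 608, at least 6.57-fold lower. Cdh11 encodes cadherin-11, the adhesion protein of mesenchymal cells, and had 13.9 and 585, at least 6.33-fold lower. Bhlhb9, Bmp2 and Cdh11 had 1 compared probe set each.

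ATF4 targets answer amino acid shortage. Of 30 listed ATF4 targets 28 were compared, 5 were higher by 2-fold or more, 0 were lower, and 25 had a difference above 0. Over all compared genes 0.991% were higher by 2-fold or more, 0.777% were lower and 47.7% had a difference above 0. The list median was 0.42 on the log2 scale, against -0.01 over all compared genes, and it was 0.38 to 0.49 under the 9 other settings of the processing. The glutathione-degrading enzyme gene Chac1 had 1203 in tumour cells and 314 in pre-injection cells, 3.84-fold higher. Atf5, a transcription factor related to ATF4, had 534 and 167, 3.20-fold higher. Cth, which makes cysteine from cystathionine, had 1867 and 586, 3.19-fold higher. Slc7a11 imports cystine, the oxidised form of cysteine. It was 478 in tumour and 155 in pre-injection cells, 3.09-fold higher, with both probe sets past 2-fold. The glycine transporter gene Slc6a9 had 600.4 and 277, 2.17-fold higher on 1 of 2 probe sets.

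Other members were higher by less than 2-fold. The phosphatase subunit gene Ppp1r15a was 436 in tumour and 255 in pre-injection cells, asparagine synthetase Asns 2228 and 1331, the alanine aminotransferase gene Gpt2 374 and 237, and the pseudokinase gene Trib3 264 and 169. Atf4 itself had 3694 and 2531, a log2 difference of 0.55, with 0.06 to 0.56 over its 3 probe sets. The stress factor gene Ddit3 had 426 and 279. Cebpb, the partner that binds with ATF4, had 1981 and 1985. Other members near 0 or below it were Sqstm1 at 0.03, Ddit4 at -0.17 and Nmral1 at -0.34 on the log2 scale. Members of this list were chosen with earlier results of these arrays known, so the count describes them only.

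Serine, glycine and folate enzymes and the tRNA synthetases, many of which ATF4 also drives, lay on the same side. Of 13 compared serine, glycine, folate and proline synthesis genes 10 were above 0, 1 was higher by 2-fold or more and 0 were lower, with a median of 0.51. That gene was Aldh1l2, a mitochondrial folate enzyme, with 816 in tumour and 329 in pre-injection cells, 2.48-fold higher. The serine synthesis genes Phgdh, Psat1 and Psph had log2 differences of 0.51, 0.35 and 0.85, and the mitochondrial folate genes Shmt2 and Mthfd2 0.52 and 0.62. Cytosolic Shmt1 and Tyms, which makes thymidylate, were at -0.20 and -0.19. Of 19 cytosolic aminoacyl-tRNA synthetases 15 were above 0 and 0 passed 2-fold in either direction, with a median of 0.39 and a highest value of 0.94. In p65-/- cells the medians of these 3 lists were -0.03, -0.01 and -0.06, beside 0.03 over all compared genes. Chaperones and XBP1 targets of the endoplasmic reticulum had a median of 0.12, with 0 of 24 past 2-fold.

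**Figure D3:**
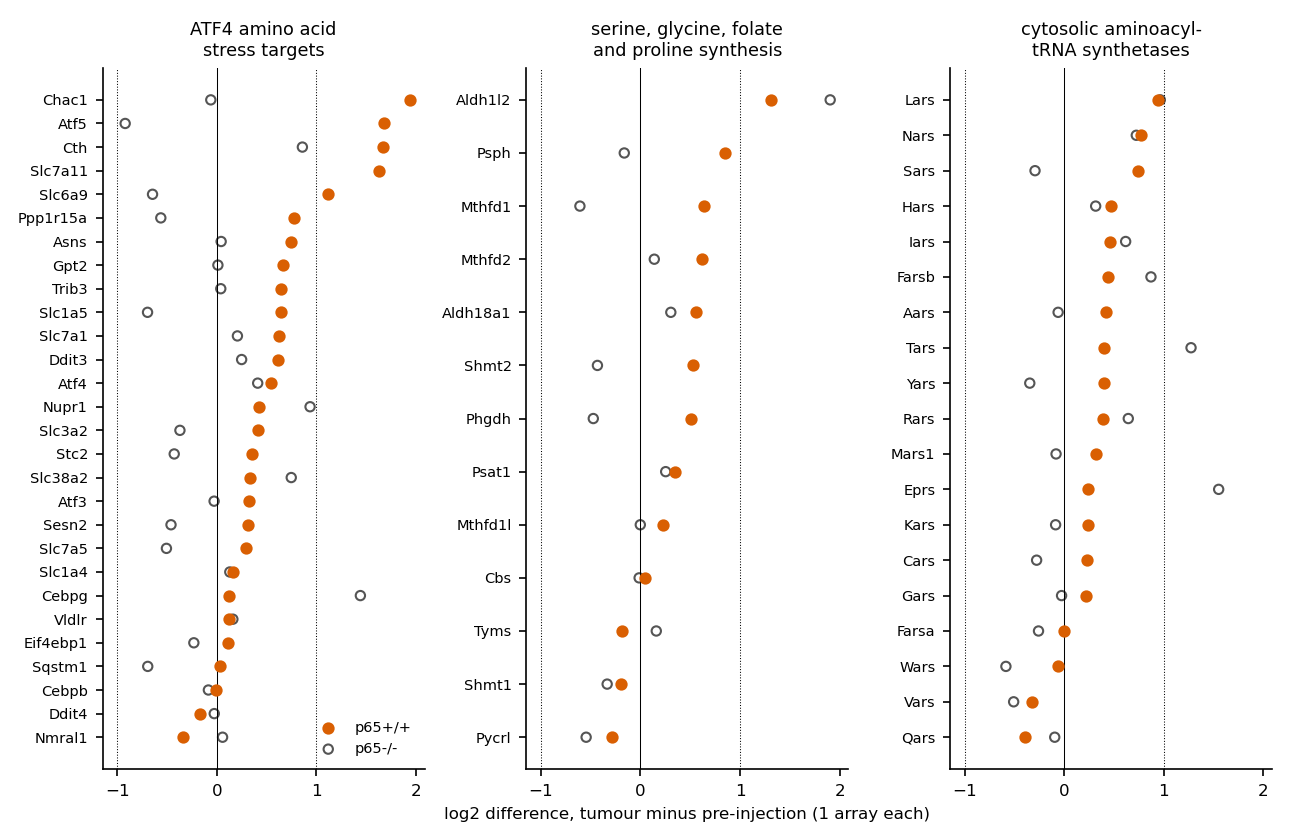
Points give the log2 difference, tumour minus pre-injection, of each compared member of 3 lists, in p65+/+ cells (filled orange) and p65-/- cells (open grey), with 2-fold as dotted lines. In p65+/+ cells 25 of 28, 10 of 13 and 15 of 19 members lie above 0.

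ATF4 acts with C/EBP proteins on a composite element, and its core letters were looked for in the promoters of these genes, 250 bases before to 50 after the start site, from RefSeq on GRCm38.p6. The search was for TGATGNAA on either strand, with N any base. Promoters of 4 members of the ATF4 list are shown because they hold a match, which is in capitals, and belong to genes described above.
Chac1: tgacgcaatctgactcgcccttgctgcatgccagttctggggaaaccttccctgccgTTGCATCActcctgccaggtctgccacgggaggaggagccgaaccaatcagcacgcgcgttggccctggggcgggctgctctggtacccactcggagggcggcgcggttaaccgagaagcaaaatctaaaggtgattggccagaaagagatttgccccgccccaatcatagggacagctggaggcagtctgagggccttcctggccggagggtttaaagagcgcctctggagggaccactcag
Slc7a11: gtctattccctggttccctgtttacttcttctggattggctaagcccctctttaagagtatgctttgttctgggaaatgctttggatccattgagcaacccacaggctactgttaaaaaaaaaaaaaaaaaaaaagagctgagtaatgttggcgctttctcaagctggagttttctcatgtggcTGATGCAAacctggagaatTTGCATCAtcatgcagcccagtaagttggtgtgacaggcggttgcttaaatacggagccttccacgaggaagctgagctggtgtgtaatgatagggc
Asns: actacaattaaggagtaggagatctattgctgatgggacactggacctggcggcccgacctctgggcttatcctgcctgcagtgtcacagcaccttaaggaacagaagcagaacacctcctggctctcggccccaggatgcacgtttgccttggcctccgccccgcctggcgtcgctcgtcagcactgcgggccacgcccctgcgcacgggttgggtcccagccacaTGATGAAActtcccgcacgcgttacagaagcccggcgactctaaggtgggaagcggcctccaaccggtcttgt
Trib3: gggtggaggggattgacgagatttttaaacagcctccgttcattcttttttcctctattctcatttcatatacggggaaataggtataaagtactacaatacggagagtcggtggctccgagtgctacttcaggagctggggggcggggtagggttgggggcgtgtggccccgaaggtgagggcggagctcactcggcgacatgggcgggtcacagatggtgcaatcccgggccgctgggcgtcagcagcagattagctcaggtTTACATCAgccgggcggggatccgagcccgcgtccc
They lie at chr2:119350992-119351291 on the plus strand for Chac1, chr3:50443564-50443863 on the minus strand for Slc7a11, chr6:7693160-7693459 on the minus strand for Asns and chr2:152344011-152344310 on the minus strand for Trib3. Each is written 5′ to 3′ in the direction of the gene. Slc7a11 held 2 matches, 1 on each strand, and the others 1 each. Of the 4 genes shown, Asns and Trib3 were higher by less than 2-fold. Atf5 and Slc6a9, higher by 2-fold or more, held no match, and Cth had no promoter in the set. Vldlr and Slc1a4 held a match and had log2 differences of 0.12 and 0.16. Among 24 members of the ATF4 list with a RefSeq promoter, a match was held by 9, or 37.5%, against 4.51% of the 27025 genes with a promoter in the RefSeq set. It was 5 of 12 for tRNA synthetases and 0 of 12 for serine, glycine, folate and proline synthesis genes. Among genes 2-fold or more higher in tumour cells 8 of 90 held it, or 8.89%, among lower genes 3 of 61, or 4.92%, and among compared genes 2.71%. Some ATF4 targets are known through this element, and a match describes letters only, not binding.

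Ras output and immediate early genes were mixed, with a few clear members. Of 21 compared Ras-MAPK output genes 3 were higher by 2-fold or more and 0 lower, and 12 lay above 0, with a median of 0.36. For all compared genes these shares were 0.991% higher, 0.777% lower and 47.7% above 0. The member counts of every list are to be read beside these shares. Dusp1, a phosphatase that switches off MAP kinases, had 1670.00 in tumour and 541 in pre-injection cells, 3.09-fold higher. The receptor kinase gene Epha2 had 1434 and 687, 2.09-fold higher. Spry4, a feedback inhibitor, was 829 and 405, 2.05-fold higher on 1 of 4 probe sets. Of 17 immediate early genes 2 were higher, the matricellular genes Ccn2 and Ccn1. Ccn2 had 992 in tumour and 270.1 in pre-injection cells, 3.67-fold higher, and Ccn1 2509 and 996, 2.52-fold higher, with 4 of 4 probe sets past 2-fold. The ERK targets Dusp6 and Egr1, chosen after their values were seen, had log2 differences of -0.26 and -0.13.

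NF-kB components were level and NF-kB targets went both ways. Of 14 compared NF-kB subunits and regulators 0 passed 2-fold, with a median of -0.08 and a range of -0.56 to 0.28. Of 26 compared NF-kB target genes 2 were higher and 4 lower, and the median was 0.09. Il6 was higher, as above, and the chemokine gene Ccl5 had 264 in tumour and 104 in pre-injection cells, 2.54-fold higher. Cxcl5, Mmp13, Saa3 and Mmp3 were lower. The other 20 members were within 2-fold. Among them the iron-binding protein gene Lcn2 had 1488 and 839, the chemokine gene Ccl7 734 and 426, the growth factor gene Csf1 1988 and 1211 and the prostaglandin synthase gene Ptgs2 5627 and 4232. The inhibitor gene Nfkbia had 4195 and 3503, Sod2 3169 and 3051, and Birc2, a ubiquitin ligase, 144 and 229.8. The chemokine gene Ccl2 had 3339 in tumour and 2671 in pre-injection cells, and the pattern recognition gene Ptx3 1143 and 1003.

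The 3 matrix proteases that were lower belong to 1 cluster of Mmp genes on chromosome 9. Mmp3, stromelysin-1, had 1738 in tumour and 6517 in pre-injection cells, 3.75-fold lower. Mmp10, stromelysin-2, had 224 and 1131, 5.04-fold lower. Mmp13, collagenase-3, had 21.0 in tumour cells, under the floor, and 511 in pre-injection cells, at least 5.52-fold lower. Adamts1, a protease of proteoglycans on chromosome 16, had 646 and 277, 2.33-fold higher. These were 3 lower and 1 higher of 22 compared proteases and inhibitors, whose median was 0.09.

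Of 19 compared collagens 1 passed 2-fold, 5 had a difference above 0, and the median was -0.30. Col6a3, a chain of the microfibrillar collagen VI, had 869 in tumour and 2242 in pre-injection cells, 2.58-fold lower. Of those chosen after their values were seen, Col5a1 had 942 and 1836, Col6a1 953 and 1453, Col1a1 2046 and 2734, and Col12a1 2066 in tumour and 1282 in pre-injection cells. Of 29 other matrix proteins 6 were higher and 2 lower, with a median of 0.03. Beside Lum, Thbs1, Ccn2 and Ccn1 the higher genes were Tnc and Fbln5. Tnc encodes tenascin-C, a matrix protein of wounds and tumour stroma, and had 4859 in tumour and 1429 in pre-injection cells, 3.40-fold higher, with both probe sets past 2-fold. Fbln5, an elastic fibre protein, had 1888 and 867, 2.18-fold higher. The fibrillin gene Fbn2 had 409.8 and 894, 2.18-fold lower, and the basement membrane gene Nid2 68.4 and 269, at least 2.91-fold lower.

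Genes of the mesenchymal state, of adhesion and of contraction differed at single members. Twist2, a mesenchymal transcription factor, had 2013 in tumour and 805 in pre-injection cells, 2.50-fold higher. The surface enzyme gene Nt5e had 623 and 253, 2.46-fold higher on 1 of 2 probe sets. Cd34, a surface sialomucin, had 899.7 and 1854, 2.06-fold lower. With Cdh11 these made 2 higher and 2 lower of 19 compared members, and the other 15 lay within 2-fold. Among the transcription factors, Twist1, Snai2, Zeb1 and Prrx1 were at 0.21, 0.49, 0.23 and 0.84 on the log2 scale, and Snai1, Zeb2 and Prrx2 at -0.34, -0.36 and -0.43. Of 14 integrins and adhesion genes 1 was higher and 2 were lower. Itga6, a laminin receptor chain, had 640.2 and 1627, 2.54-fold lower, and Alcam, an immunoglobulin-type adhesion protein, 516 and 1357, 2.63-fold lower, with 4 of 5 compared probe sets past 2-fold. Itgb7 was 2.20-fold higher, with 386 and 176. Of 17 contractile genes 1 passed 2-fold, the actin-binding protein gene Tagln, with 417 in tumour and 865 in pre-injection cells, 2.07-fold lower.

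Growth factor and differentiation pathways showed few members past 2-fold beside Fst, Bmp2 and Igfbp4. Igfbp6, a binding protein for insulin-like growth factors, had 434 in tumour and 182 in pre-injection cells, 2.38-fold higher. The KIT ligand gene Kitl had 851 and 400.4, 2.12-fold higher, with 2 of 4 probe sets past 2-fold, and the growth factor gene Ptn 132 and 299, 2.27-fold lower. With Igfbp4 these were 3 higher and 1 lower of 28 growth factors and receptors. Of 27 TGF-beta, activin and BMP genes 1 was higher, Fst, and 3 were lower. Tgfbi, a matrix protein induced by TGF-beta, had 229 and 576, 2.52-fold lower, with 4 of 4 probe sets past 2-fold, and the signal transducer gene Smad3 222 and 496, 2.23-fold lower on 1 of 3. The Wnt inhibitor gene Dkk2 had 992 in tumour and 407 in pre-injection cells, 2.44-fold higher, as the 1 member of 19 Wnt genes past 2-fold.

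Stress, survival and growth genes were mostly level. The detoxifying genes Nqo1 and Gstm2 were 2.12-fold and 2.42-fold higher, as 2 of 24 NRF2 and antioxidant genes, whose median was 0.23. Of 25 hypoxia and glycolysis genes the oxygen sensor gene Egln3 passed 2-fold, with 611 in tumour and 302 in pre-injection cells, 2.03-fold higher. Ifit2 was the 1 of 16 interferon-stimulated genes past 2-fold, at 471 and 219, 2.15-fold higher. Of these 16 genes, 14 lay above 0. Their median was 0.17, and 0.07 to 0.97 under the 9 other settings. The 16 were above the floor in tumour cells, and only 10 were above it before injection. The rest were compared through their tumour signal alone, so their difference could hardly lie below 0. The count of 14 and the median are thus in part set by the floor, and no conclusion is drawn from them. Bcl2, which blocks apoptosis, had 162 and 405, 2.50-fold lower on 1 of 3 probe sets. Among 33 cell cycle genes, 18 p53 targets and CDK inhibitors, 12 heat shock genes, 18 cholesterol synthesis genes, 13 Hox genes, 10 MHC class I and antigen processing genes, 20 ribosomal protein genes and 4 sex-linked genes, 0 passed 2-fold. The cell cycle median was -0.13 and the p53 target median 0.04. The highest signals on the arrays, those of Lgals1, Tpt1 and Actb, differed by 1.01-fold to 1.08-fold.

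**Figure D4:**
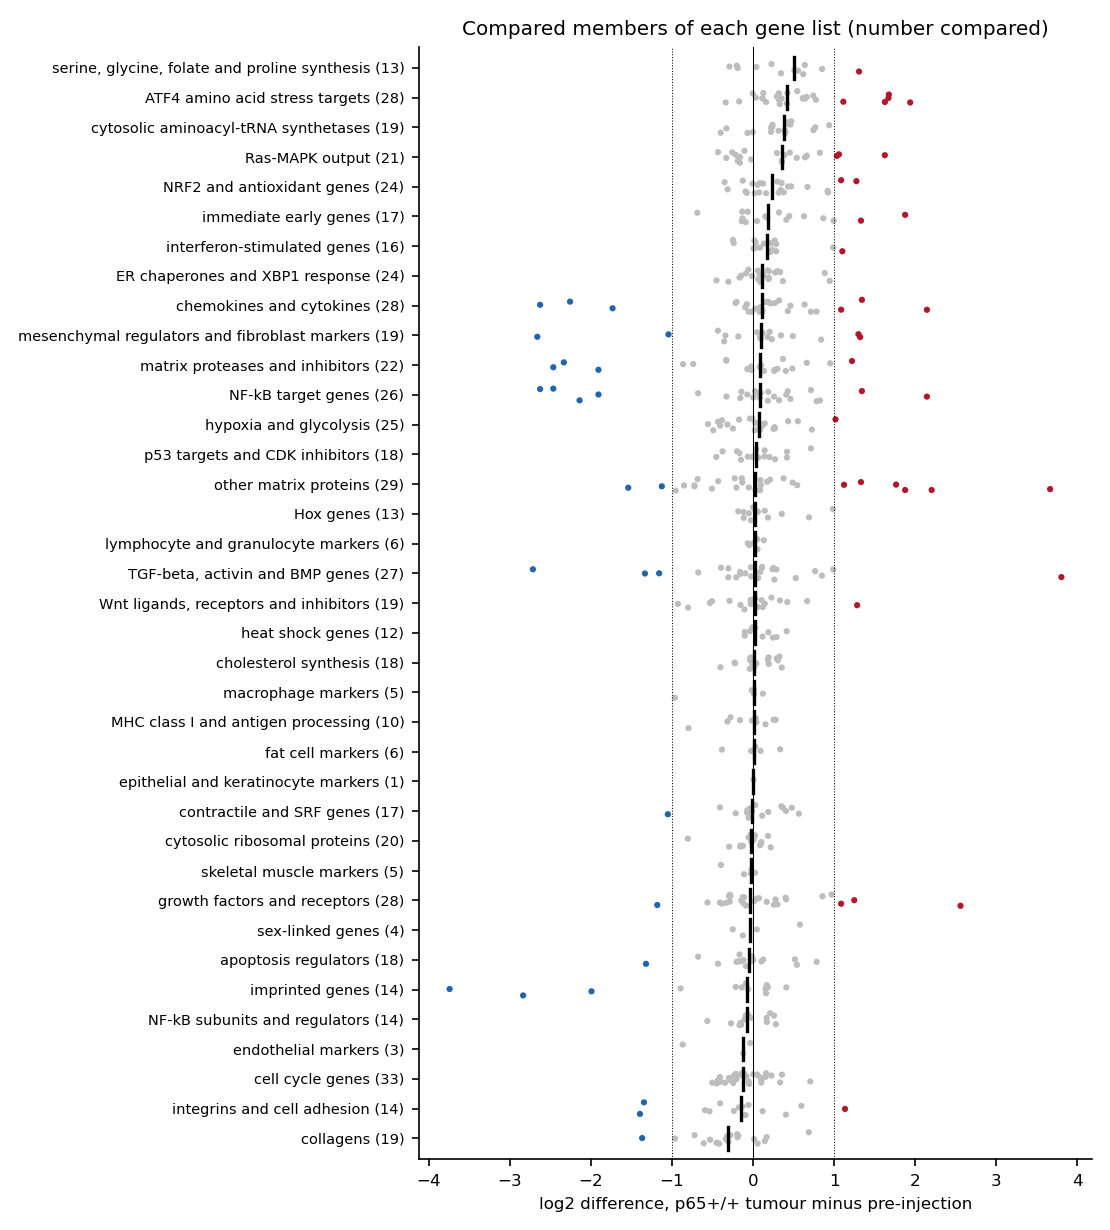
Points give the log2 difference, p65+/+ tumour minus pre-injection, of each compared member of 37 gene lists, sorted by the list median (black bar), with members past 2-fold in red or blue. Medians lay between -0.30 for collagens and 0.51 for serine, glycine, folate and proline synthesis, and most members lay within the dotted 2-fold lines.

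The difference also varied by chromosome. On chromosome 3 the median over 569 compared genes was 0.23, with quartiles of 0.02 and 0.41, and 77.2% of genes lay above 0. It held 21 of the 116 higher genes, or 3.69% of its compared genes, and 1 of the lower ones. Slc7a11, Cth, Ccn1, Dkk2, Gstm2, Adh7, Serpini1 and Slc6a17 are among the higher genes on chromosome 3. Medians on chromosomes 18, 13, 12, 14 and 10 were 0.17, 0.16, 0.15, 0.12 and 0.09. Chromosome 17 had the lowest median, -0.14, with 144 of its 575 genes above 0. With genes split at the quartiles of promoter GC content, low to high, chromosome 3 genes had medians of 0.14, 0.28, 0.19 and 0.29, against -0.02, -0.03, -0.02 and -0.02 for genes on the other chromosomes. GC content was used for 81.1% of the genes, and chromosome 18 is not among them. In p65-/- cells the medians were 0.26 on chromosome 3, 0.30 on chromosomes 13 and 18, 0.25 on chromosome 14 and -0.06 on chromosome 17. Chromosomes where the sign differed included chromosome X, with 0.30 in p65-/- and -0.07 in p65+/+ cells, and chromosome 16, with 0.18 in p65-/- and -0.10 in p65+/+ cells. The lowest p65-/- median was -0.10, on chromosome 7. The arrays measure RNA, and the number of copies of a chromosome was not measured.

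**Figure D5:**
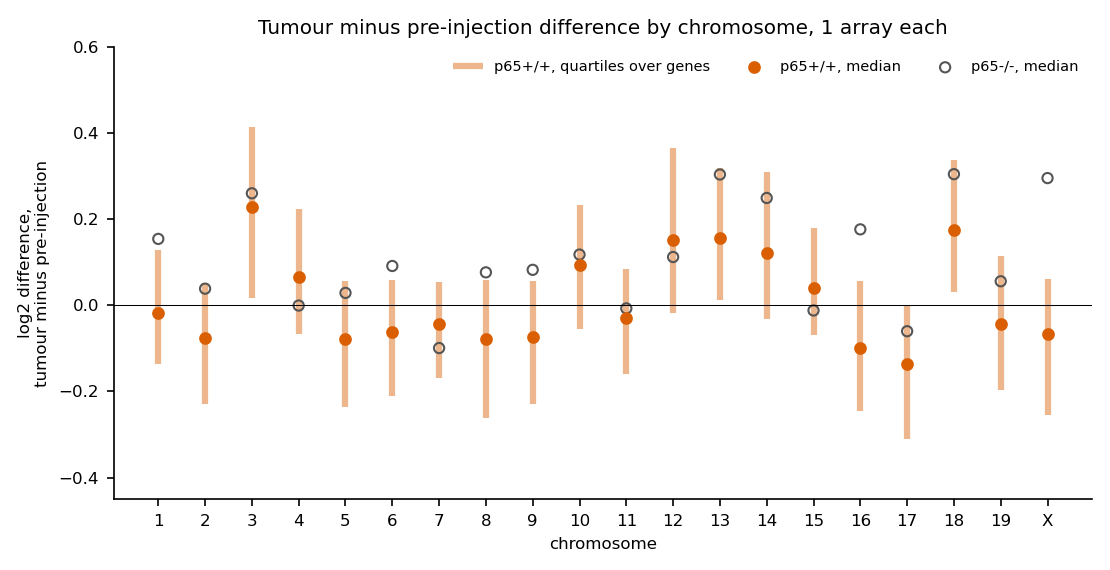
For each chromosome the filled orange point is the median log2 difference, tumour minus pre-injection, over compared genes of p65+/+ cells, the bar spans the quartiles, and the open point is the median in p65-/- cells. Chromosome 3 lies highest in p65+/+ cells at 0.23 and chromosome 17 lowest at -0.14.

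The tumour and pre-injection arrays of p65-/- cells share no sample with the p65+/+ pair. There, 1734 of 12444 compared genes were higher in tumour cells, or 13.9%, and 187 lower, or 1.5%. The p65-/- pre-injection array stands apart from the others, with 7695 probe sets at a signal of 300 or more, against 9516 on the p65-/- tumour array and 10002 and 10072 on the p65+/+ tumour and pre-injection arrays. The part of that array in the p65-/- values was not tested, and with 1 array a group the difference between genotypes was not tested either. The genotypes are also different cell lines, and line and genotype cannot be told apart. Of the 116 genes higher in p65+/+ tumour cells, 21 were also higher in p65-/- tumour cells, 21 were lower there, 60 were within 2-fold and 14 lay under both floors. Of the 91 lower genes, 9 were lower in p65-/- tumour cells, 27 were higher, 48 were within 2-fold and 7 lay under both floors. Across 11321 genes the differences in the 2 genotypes had a Pearson correlation of -0.05.

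Some matrix genes were higher in tumour cells of both genotypes. In p65-/- tumour and pre-injection cells, Ccn2 had 4283 and 1102, Tnc 956 and 347, Ccn1 2653 and 1244, and Adamts1 534 and 197. Aldh1l2, with 566 and 151, and Sar1b, with 1347 and 393, were also higher in both. Col6a3 was lower in both, with 1887 in p65-/- tumour and 4655 in p65-/- pre-injection cells, and so were the stromelysin genes, with Mmp3 at 74.8 and 612 and Mmp10 at 65.2 and 349.98. Nefl was lower in both too, with 28.2 in p65-/- tumour and 4178 in p65-/- pre-injection cells.

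Others went opposite ways. Fst had 153 in p65-/- tumour cells and 312 in p65-/- pre-injection cells. Cxcl12 had 2224 and 281, Cdh11 812 and 56.8, Ndn 1282 and 149.8, and Meg3 545 and 20.4. In each of these 4 genes the p65-/- pre-injection signal was below that of p65+/+ pre-injection cells, and the p65-/- tumour signal was above that of p65+/+ tumour cells. Lum and Pcdh17 were under both floors in p65-/- cells, and so was Slc7a11.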

How the data were processed

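RNA of 4 samples was measured on 1 array each, so no p-value was computed. The main values were the authors' deposited signal for 45037 probe sets, on a linear scale. The sources used here do not say how they were summarised and scaled. The authors also deposited a table of log2 ratios, whose values at strong signals are mostly a score, the signed quotient of 2 log2 levels. It matched that quotient within 0.02 for 89.1% of 9362 probe sets with signals of 300 or more. Over all 45037 probe sets it matched for 37.9%, and the cause was not tested. The table was used only as an alternative. Scanner intensity, deposited by the authors and not normalized per the file headers, served for array quality only. No scan date was found.

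Signals under 1 were set to 1 and converted to log2 (Python 3.11.15, pandas 2.3.3, numpy 2.4.6). Platform annotation gave 34945 probe sets 1 gene, 932 several and 9160 none. A gene took its 1-gene probe set with the highest mean over the 4 arrays, with _x_at and _s_at sets used last. The procedure was run on simulated data, with changes past the 2-fold threshold placed in strong signals only. That run cannot show how it does with weak signals or with changes near 2-fold.

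Genes named are Rela, the 15 highest and 15 lowest above both floors, the 8 largest at-least differences each way, up to 6 members past 2-fold each way in a list, all ATF4, serine and NF-kB target members, markers above the floor, and the 10 highest signals. Of the 866 entries in 37 lists, 799 had their own probe set. The members and lists were chosen with earlier results of these data known.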

Additional observations from a re-analysis of the deposited data

Results flagged for a closer look

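In 25 named genes the tumour difference went past 2-fold in opposite directions in p65+/+ and p65-/- cells. Given is the log2 tumour difference in p65+/+ cells minus that in p65-/- cells, which with 1 array a group was not tested. For genes higher in p65+/+ tumour cells and lower in p65-/- tumour cells it was Igfbp6 6.29, Dynap 5.86, Clu 5.28, Mlycd 4.95, Fst 4.83, Glipr1 4.69, Akr1c18 4.51, Adh7 3.90, Slc6a17 3.60, Spry4 3.08, Itgb7 2.97, Ccl5 2.78 and Egln3 2.45. For genes lower in p65+/+ tumour cells and higher in p65-/- tumour cells it was Meg3 -6.38, Ndn -5.93, Cdh11 -5.87, Cxcl12 -5.24, Bhlhb9 -4.90, Tmem45a -4.51, Peg12 -3.93, Nsg1 -3.64, Tagln -3.63, Rdh10 -3.27, Slc38a4 -3.03 and Fndc4 -2.71. Clu, Dynap, Akr1c18, Adh7, Spry4, Igfbp6, Meg3, Ndn, Bhlhb9, Cdh11 and Peg12 had an array under its floor in at least 1 of the comparisons, so their values are lower limits in size. All 25 rest on the p65-/- pre-injection array, which stands apart from the other 3 arrays, and its part in them was not tested.

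Probe sets with no gene or several genes were left out of the gene counts. Of 2920 of them compared, 19 were higher by 2-fold or more in p65+/+ tumour cells and 23 were lower than in pre-injection cells.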

How the results depend on the processing

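The counts of 116 higher and 91 lower genes were recomputed under 10 alternatives. Quantile, 75th percentile, median and loess scaling, averaging the probe sets of each gene and leaving out _x_at and _s_at probe sets gave 105 to 120 higher and 84 to 90 lower genes. With the floor at the 70th percentile 79 genes were higher and 49 lower, and with no floor 151 and 186. Among genes with 2 or more compared probe sets that all passed 2-fold, 23 were higher and 16 lower, since fewer genes can qualify. The authors' deposited table gave 605 higher and 615 lower of 10721 genes, and the cause was not tested. The quotient, less 1, was multiplied by the lower of the log2 signals to give a log2 difference. By these values 85 of 96 higher and 54 of 57 lower genes with both arrays above the floor still passed 2-fold, and 1 had the opposite sign. The medians of the lists moved by more than the within-gene standard deviation in 11 of 330 cases, 10 of them with that table.

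Named genes that fell short of 2-fold with the floor at the 70th percentile were Fndc4, Hp, Ecscr, Mcc, Serpini1, Adh7, Ntn4, Ccl5, Nid2, Ptn, Itgb7 and Gstm2. With the mean of all probe sets they were Slc6a17, Slc6a9, Spry4, Bcl2, Kitl and Smad3, with the authors' deposited table Smim27, Ccn1, Twist2 and Dkk2, and with quantile normalization Egln3. Ezr fell short under both the higher floor and the mean of probe sets. No paired analysis was possible because each group had 1 array. Signal over background limits what can be seen: 6487 of 18193 genes lay under both floors and were not compared.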

Other observations

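Neighbouring genes differed together in places. In windows of 41 compared genes in chromosome order, the median log2 difference of p65+/+ tumour minus pre-injection cells ran from -0.35 to 0.51 over 10885 windows. The highest window lay on chromosome 12 from Timm9 to Zfyve26, where 39 of 41 genes were above 0 and 1 passed 2-fold. Its median in p65-/- cells was 0.33. On chromosome 3 the highest window, from Pcdh10 to Mbnl1, had a median of 0.37 with 35 genes above 0, and its lowest window, from Zc2hc1a to Mynn, still had 0.07. The lowest window lay on chromosome 9 from Alkbh8 to Zfp560, with 35 of 41 genes below 0, while its median in p65-/- cells was 0.69. Windows overlap and their genes share the same 2 arrays, so these values are a description.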
